A study of Rattus norvegicus with 21 samples.

Results

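Amino acid transporters were followed in the livers of male Harlan Sprague-Dawley rats given 2-ethylhexyl diphenyl phosphate, which the labels write as EHDP or EDHP. The compound is a triester of phosphoric acid that serves as a plasticiser and retards flame. The set held 35 of the 14218 genes measured. It took every gene whose array annotation named a member of the solute carrier families Slc1, Slc7, Slc36, Slc38 or Slc43 together with Slc3a1 and Slc3a2, and left out Slc7a11. Where several probe sets named a gene, the one with the brightest mean signal stood for it, and 6 of the 35 had more than 1. EHDP in corn oil was given by gavage at 61.2, 122.5, 244.6, 489.2 or 978.5 mg/kg on 4 consecutive days, with 3 arrays at each dose, and the reference was corn oil alone by the same route, with 6 arrays. RNA came from the left lobe of livers collected on day 5, and the labels used here give no age. The protocol gives 3 rats to each dose but 5 to the vehicle, whereas 6 arrays carry the dose 0. No arrays held identical values, and all 6 were used.

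Amino acid carriers move amino acids across the plasma membrane and the membranes of lysosomes. Many of them are exchangers, which bring in an amino acid only against the release of another, and several Slc7 carriers are light chains that reach the cell surface only when bound to a heavy chain, Slc3a2 or Slc3a1. In the liver, carriers of glutamine, alanine and cationic amino acids feed the urea cycle and gluconeogenesis. When amino acids run short, the kinase GCN2 slows translation while the factor ATF4 is made, and ATF4 raises transcription of several carriers and of asparagine synthetase.

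All signals are log2 values as deposited, and a difference of 1 means a 2-fold change. Array medians lay between 6.33 and 6.41, and vehicle replicate 6 had the lowest mean correlation with the other arrays, 0.988. The 5 hepatocyte markers measured had array means between 14.26 and 14.42 in all groups. The 7 macrophage markers measured had array means between 8.92 and 9.36 at 978.5 mg/kg, against 9.48 to 10.01 in vehicle livers, and the 3 red cell markers between 9.18 and 10.05, against 10.19 to 11.55. In whole liver, fewer cells of a type and less RNA per cell cannot be told apart. The number of arrays limits the precision of all values below.

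The light-chain and heavy-chain pair of the large neutral amino acid exchanger was higher at the top dose, and 3 other carriers were lower. At 978.5 mg/kg Slc3a2, the heavy chain also called 4F2hc or CD98, and Slc7a5, its light chain LAT1, rose 1.68-fold and 1.67-fold. Slc7a8, another light chain of Slc3a2, Slc43a2, a uniporter of large neutral amino acids, and Slc38a3, the glutamine carrier SNAT3, fell by 0.33, 0.42 and 0.34. These 5 of 35 members, or 14.3%, passed the limma test at an adjusted p under 0.05, beside 10.2% of all genes. The share is near that of all genes, and the median difference of the members was -0.06, beside -0.02 over all genes. The median size of a difference, regardless of sign, was 0.12 in the members and 0.12 in all genes. In 2 members all treated arrays lay above all vehicle arrays, as in 6.74% of all genes, and in 4 they lay below, as in 6.79%. The 4 were the members that fell and Slc7a10.

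**Figure D1:**
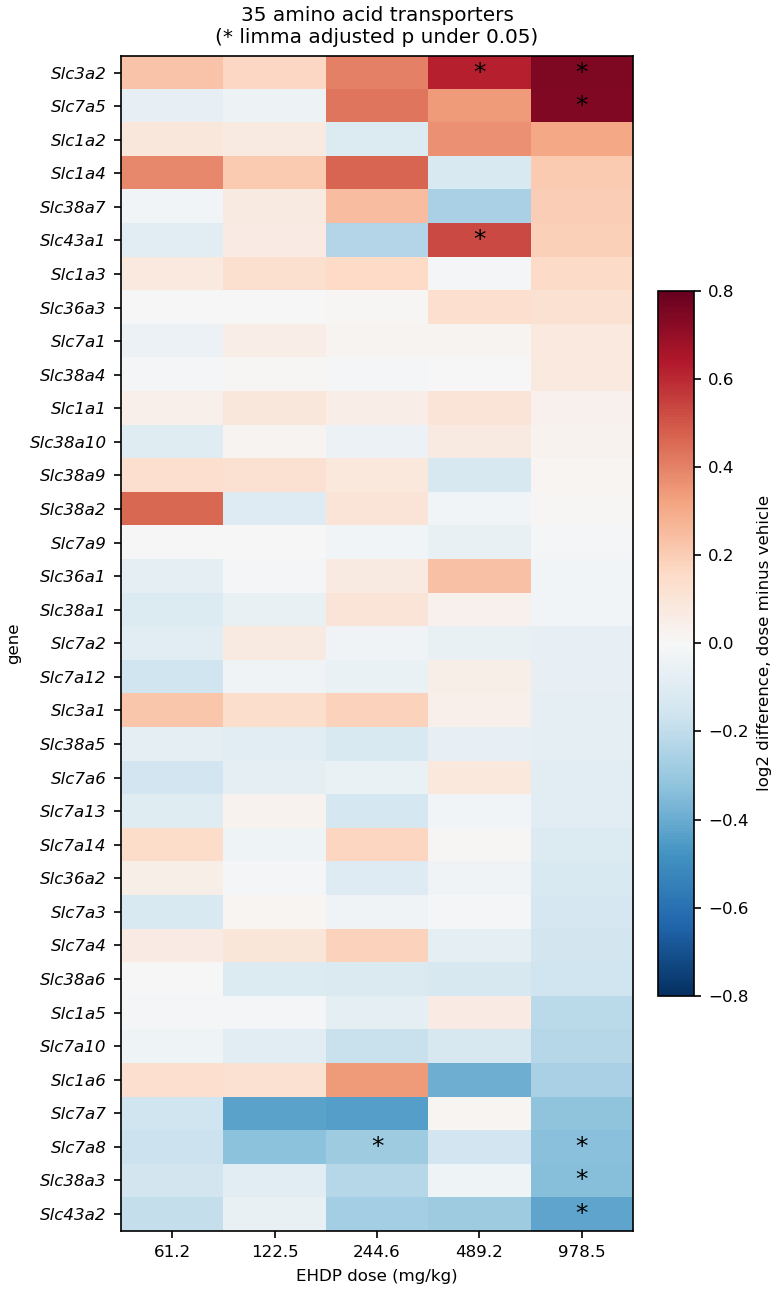
Log2 difference of each of the 35 transporters (rows, ordered by the value at 978.5 mg/kg) from the vehicle mean at each EHDP dose in mg/kg (columns, n = 3 against 6), in colour, with an asterisk where the limma adjusted p was under 0.05. Asterisks appear from 244.6 mg/kg on, and the deepest reds at 978.5 mg/kg are Slc3a2 and Slc7a5, at 0.74 each.

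Calls were few at the other doses. No member passed at 61.2 or 122.5 mg/kg, where limma called 0.0141% and 0.113% of all genes. At an unadjusted p under 0.05 there were 3 members at 61.2 mg/kg and 2 at 122.5 mg/kg. Slc7a8 alone, 1 member, fell at 244.6 mg/kg, which is 2.86% of the members beside 2.95% of all genes. Slc3a2 and Slc43a1, 2 members, rose at 489.2 mg/kg, which is 5.71% beside 2.9% of all genes, with 1.51% higher and 1.39% lower. All arrays of a dose lay beyond the vehicle in few members. For the doses of 61.2, 122.5, 244.6 and 489.2 mg/kg in turn, they lay above it in 2, 0, 1 and 2 members, beside 1.48%, 1.81%, 5.51% and 3.54% of all genes. They lay below it in 0, 2, 4 and 0 members, beside 0.893%, 1.24%, 3.07% and 2.88%. In a trend fitted over the 6 ranked dose groups, 2 members rose and 3 fell, again 14.3%, beside 11.2% of all genes, with 6.06% higher and 5.12% lower. The mean of 489.2 and 978.5 mg/kg was also set against the mean of 61.2 and 122.5 mg/kg, a contrast that uses no vehicle array, and there 2 members were higher and 0 lower, 5.71% beside 3.05% of all genes, with 1.78% higher and 1.27% lower. The 5 dose comparisons share the vehicle arrays. Over all 7 tests 7 members were called and 28 were not.

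Slc3a2 is the heavy chain that carries several light chains to the cell surface. Its signals were 11.46, 11.36 and 11.36 at 978.5 mg/kg, against a lowest of 10.39, a median of 10.62 and a highest of 11.06 in vehicle livers. Every array at this dose stood above every vehicle array. The difference was 0.74 ± 0.16 (SE, n = 3 against 6, limma adjusted p = 0.00435). At 489.2 mg/kg the arrays stood at 11.54, 11.50 and 10.78, so that replicate 3 lay within the vehicle range while the others lay above it (difference 0.62 ± 0.16, limma adjusted p = 0.0335). Means at 61.2, 122.5 and 244.6 mg/kg were 10.88 ± 0.17, 10.82 ± 0.17 and 11.05 ± 0.16 (SD, n = 3 each), against 10.65 ± 0.26 in vehicle livers (SD, n = 6), and none of these passed. The trend was 0.15 ± 0.03 per dose step (SE, limma adjusted p = 0.000457). Between the highest and the lowest doses Slc3a2 differed by 0.48 ± 0.13 (SE, n = 6 against 6, limma adjusted p = 0.0427), a call that leaving out 1 array ended for 9 of the 12 arrays, all but replicate 3 of 61.2, 122.5 and 489.2 mg/kg (limma adjusted p up to 0.127). It was also lost after a second quantile normalization (limma adjusted p = 0.0586), with a floor at the 20th percentile of signals (0.0564), with only the arrays compared (0.0606) and with a 1.5-fold minimum, and was kept in the other 6 alternatives. The call at 489.2 mg/kg was lost when only the arrays compared were fitted (limma adjusted p = 0.174). It was also lost without replicate 1 or 2 of that dose (limma adjusted p = 0.291 and 0.14) and without vehicle replicate 1, 2 or 4 (0.0658, 0.0649 and 0.065).

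Slc7a5 exchanges large neutral amino acids such as leucine and needs Slc3a2 at the membrane. It had signals of 7.95, 7.53 and 7.61 at 978.5 mg/kg, against a lowest of 6.63, a median of 6.96 and a highest of 7.22 in vehicle livers, without overlap. The difference of 0.74 ± 0.15 passed (SE, n = 3 against 6, limma adjusted p = 0.00362). At 244.6 mg/kg the arrays stood at 7.41, 7.18 and 7.57 and at 489.2 mg/kg at 7.57, 7.14 and 7.19, in each case with at least 1 array inside the vehicle range, and neither difference passed (0.43 ± 0.15 and 0.34 ± 0.15). At 61.2 and 122.5 mg/kg the differences were -0.06 and -0.04. Slc7a5 had a trend of 0.14 ± 0.03 per dose step (SE, limma adjusted p = 0.00202). It was 0.59 ± 0.12 higher at the highest doses than at the lowest (SE, n = 6 against 6, limma adjusted p = 0.0095). No alternative that tested Slc7a5 ended its calls.

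**Figure D2:**
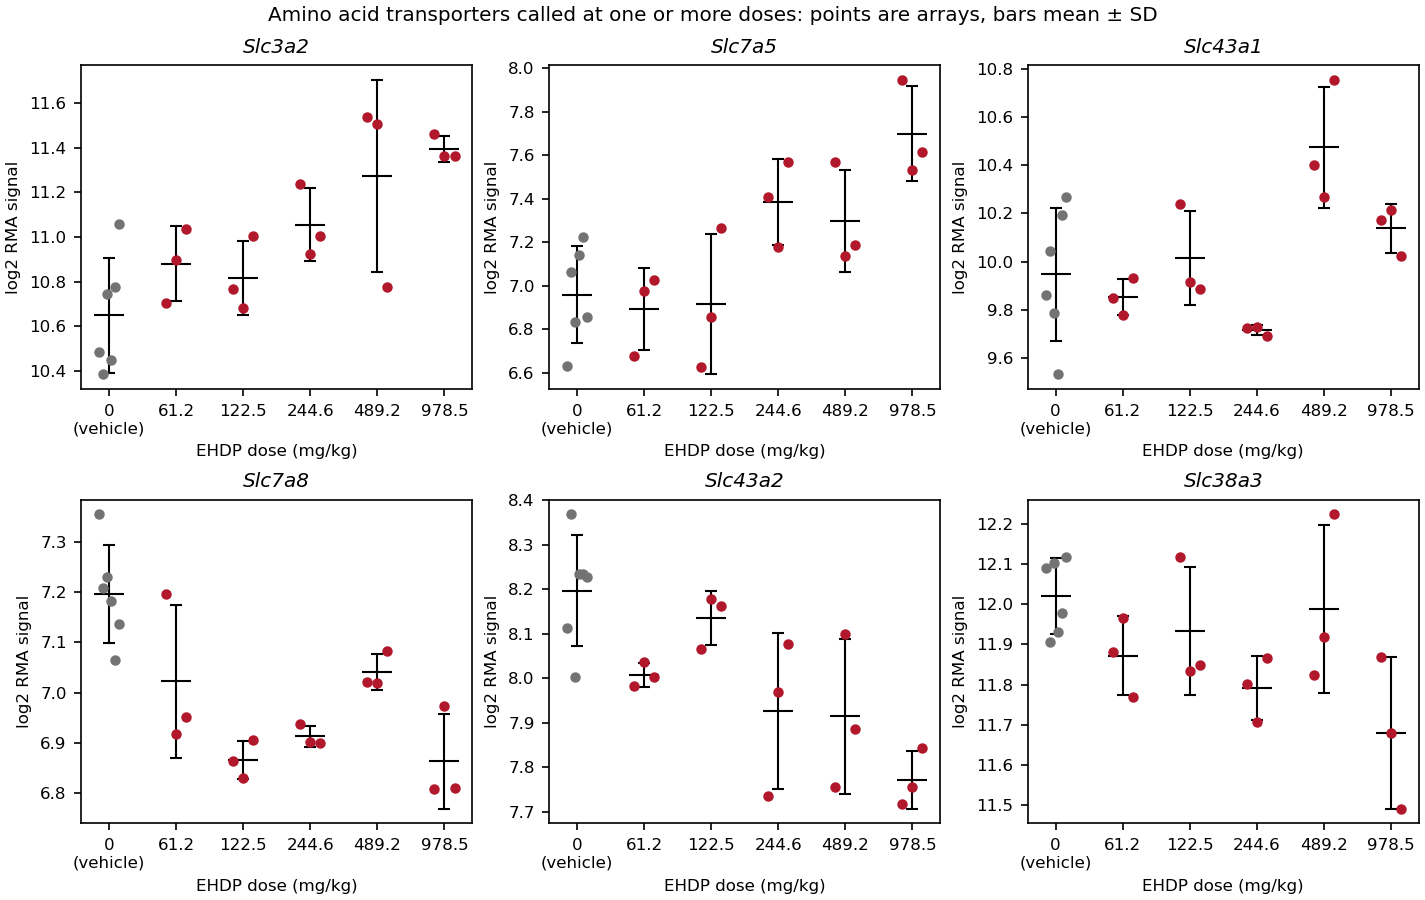
Log2 signal of the 6 transporters called at 1 or more doses (one panel each) against EHDP dose in mg/kg, with vehicle arrays in grey and treated arrays in red, and bars for the mean ± SD (n = 6 for vehicle and 3 for each dose). Slc3a2 and Slc7a5 stand above all vehicle arrays at 978.5 mg/kg, Slc43a1 at 489.2 mg/kg only, and Slc7a8, Slc43a2 and Slc38a3 lie below them at 978.5 mg/kg. The vertical axes do not start at 0 and differ between panels.

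Promoter windows, from 250 bases before to 50 bases after a start of the gene, were available from RefSeq on build GRCr8 for 27 of the 35 members, in 31 windows. They are shown for the pair that rose and for the members that hold a match to the core of the element bound by ATF4 with C/EBP partners, searched as TGATGNAA on both strands. Slc1a1, Slc1a5, Slc7a2, Slc7a3, Slc7a4, Slc7a13, Slc38a3 and Slc38a10 had no entry in that table. The 150 bases before the start of Slc3a2 (chr1:215048065-215048214, minus strand) and of Slc7a5 (chr19:66872413-66872562, minus strand) read as follows, 5′ to 3′.
Slc3a2: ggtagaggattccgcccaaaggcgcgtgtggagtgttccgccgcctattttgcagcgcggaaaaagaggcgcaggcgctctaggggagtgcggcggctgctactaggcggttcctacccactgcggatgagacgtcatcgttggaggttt
Slc7a5: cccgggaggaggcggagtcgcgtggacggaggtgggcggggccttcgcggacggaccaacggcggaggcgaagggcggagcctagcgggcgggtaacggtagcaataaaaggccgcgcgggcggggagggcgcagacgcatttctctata
Neither gene had the motif in its windows. It was found in 3 of the 31 windows, in capitals in the 60-base stretches below, those of Slc1a4 (chr14:98761753-98761812, minus strand), Slc38a1 (chr7:129681510-129681569, minus strand) and Slc7a1 (chr12:11664428-11664487, plus strand).
Slc1a4: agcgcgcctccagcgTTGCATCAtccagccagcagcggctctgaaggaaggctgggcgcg
Slc38a1: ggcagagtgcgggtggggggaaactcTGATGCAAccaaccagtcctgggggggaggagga
Slc7a1: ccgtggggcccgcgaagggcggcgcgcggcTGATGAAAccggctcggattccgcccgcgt
The matches begin 235, 142 and 30 bases before the start on which each window was built, and that of Slc1a4 lies on the other strand. For Slc1a4 and Slc38a1 that start lies inside the gene's RefSeq record, and the Slc38a1 stretch lies wholly within the record. Of all 33469 windows in the table, 3.98% hold the motif. Differences at 978.5 mg/kg were 0.21 ± 0.22 for Slc1a4, -0.02 ± 0.09 for Slc38a1 and 0.08 ± 0.11 for Slc7a1 (SE, n = 3 against 6), and none of these 3 genes was called in any test. Sites farther from these starts, in introns or elsewhere, were not searched.

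Among the other light chains of Slc3a2 in the set, Slc7a8 was called lower and Slc7a6, Slc7a7 and Slc7a10 were called at no dose. Slc7a8, the exchanger LAT2, had signals of 6.81, 6.97 and 6.81 at 978.5 mg/kg, against a lowest of 7.07, a median of 7.20 and a highest of 7.36 in vehicle livers. All treated arrays lay below all vehicle arrays here, at 122.5 mg/kg (6.86, 6.83 and 6.91) and at 244.6 mg/kg (6.94, 6.90 and 6.90). Slc7a8 fell by 0.33 at 978.5 mg/kg (SE 0.07, limma adjusted p = 0.00519) and by 0.28 at 244.6 mg/kg (SE 0.07, limma adjusted p = 0.033). At 122.5 mg/kg the difference was as large, -0.33 ± 0.07, but did not pass (limma adjusted p = 0.113) unless arrays were weighted (-0.37, limma adjusted p = 0.00111), and at 489.2 mg/kg it was -0.16 ± 0.07. Its level did not order by dose, and the contrast of highest with lowest doses gave 0.01 ± 0.06 (95% interval -0.11 to 0.13). The trend of -0.05 ± 0.02 per dose step passed (limma adjusted p = 0.0209) but not with treated arrays alone (-0.01, limma adjusted p = 0.814), without vehicle replicate 1 (0.0502), without 978.5 mg/kg replicate 1 (0.0564), with dose in mg/kg (0.112) or with the replicate number as a block (0.074). The call at 244.6 mg/kg was lost when only the arrays compared were fitted (limma adjusted p = 0.0718), without each array of that dose in turn (0.13, 0.123 and 0.114 without replicates 1, 2 and 3), and without vehicle replicate 1, 2 or 3 (0.0668, 0.0574 and 0.0636).

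Slc7a7 and Slc7a6, the exchangers y+LAT1 and y+LAT2 of cationic against neutral amino acids, were not called when all arrays were fitted with equal weights. Slc7a7 stood at 7.69, 7.46 and 7.47 at 978.5 mg/kg, at 7.24, 7.24 and 7.78 at 244.6 mg/kg and at 7.40, 7.37 and 7.53 at 122.5 mg/kg, against a lowest of 7.58, a median of 7.90 and a highest of 8.05 in vehicle livers. At 122.5 mg/kg all arrays lay below all vehicle arrays (difference -0.43 ± 0.14, limma adjusted p = 0.631), while the other doses overlapped the vehicle. With array weights Slc7a7 passed at 122.5 mg/kg (-0.45, limma adjusted p = 0.0289) and at 244.6 mg/kg (-0.45, limma adjusted p = 0.0378). Without 244.6 mg/kg replicate 3 the difference at that dose was -0.62 and passed (limma adjusted p = 0.0245). Slc7a7 is also expressed by macrophages, whose 7 measured markers were lower at 978.5 mg/kg by 0.47 to 0.77. Of these 7, 1 was called, Cd163, beside 4.07% of all genes that fell. The marker means by array were 8.92 to 9.36 at 978.5 mg/kg, 8.98 to 9.64 at 244.6 mg/kg and 9.32 to 9.60 at 122.5 mg/kg, against 9.48 to 10.01 in vehicle livers. At 489.2 mg/kg replicate 3 had both the highest Slc7a7 of all arrays, 8.32, and a marker mean of 9.96, the highest of the treated arrays. Replicate 1 of that dose had the lowest marker mean, 8.46, and Slc7a7 at 7.66. The part of macrophages in these values was not tested. Slc7a6 differed from the vehicle by -0.09 ± 0.11 at 978.5 mg/kg (95% interval -0.31 to 0.14).

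**Figure D3:**
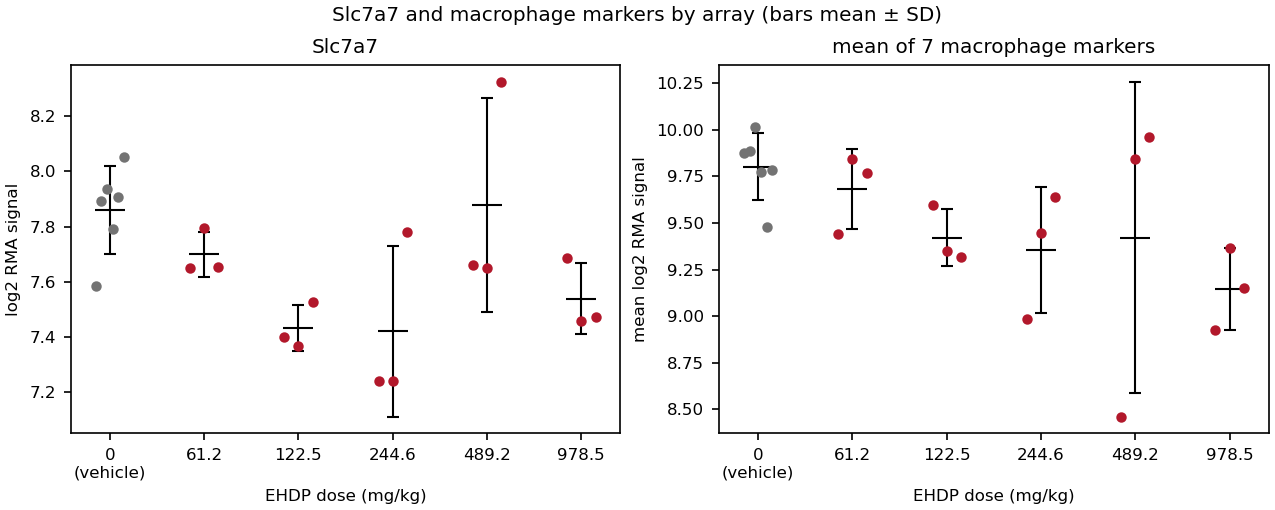
Log2 signal of Slc7a7 (left) and the mean log2 signal of 7 macrophage markers (right) against EHDP dose in mg/kg, by array, with vehicle in grey, treated arrays in red and bars for the mean ± SD (n = 6 for vehicle and 3 for each dose). At 489.2 mg/kg the array with the highest Slc7a7, 8.32, also has the highest marker mean of that dose, 9.96.

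Slc7a10, the light chain Asc-1 that carries small neutral amino acids, had low signals and was called in the trend alone. Its arrays at 978.5 mg/kg read 5.31, 5.39 and 5.37, against a lowest of 5.48, a median of 5.56 and a highest of 5.72 in vehicle livers. They did not overlap, yet the difference of -0.23 ± 0.09 did not pass at that dose (limma adjusted p = 0.109). The trend, -0.04 ± 0.01 per dose step (limma adjusted p = 0.0469), was lost without 14 of the 21 arrays in turn (limma adjusted p up to 0.115), with median centring (0.104) and with a floor at the 20th percentile of signals (0.385). It was also lost after a second quantile normalization (limma adjusted p = 0.0632), with treated arrays alone (0.384) and with dose in mg/kg (0.0878). Slc3a1, the heavy chain of the cystine and dibasic amino acid carrier, and its light chain Slc7a9 differed from the vehicle by -0.07 ± 0.12 and -0.01 ± 0.07 at 978.5 mg/kg. Slc7a9 was among the dimmest of the members, with signals between 4.06 and 4.35 on all arrays.

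The Slc43 uniporters, which need no heavy chain, were called in opposite directions and at different doses. Slc43a2, also called LAT4, had signals of 7.72, 7.76 and 7.84 at 978.5 mg/kg, against a lowest of 8.004, a median of 8.23 and a highest of 8.37 in vehicle livers. No array overlapped, and Slc43a2 fell by 0.42 (SE 0.09, n = 3 against 6, limma adjusted p = 0.00376). Differences at 244.6 and 489.2 mg/kg, -0.27 ± 0.09 and -0.28 ± 0.09, did not pass (limma adjusted p = 0.12 and 0.0952), although the trend of -0.08 ± 0.02 per dose step did (limma adjusted p = 0.00176). Its dimmer probe set gave -0.17 at 978.5 mg/kg, and with the mean of both probe sets the call was lost (-0.30, limma adjusted p = 0.0561). With treated arrays alone the trend did not pass (limma adjusted p = 0.131), and without 489.2 mg/kg replicate 2 the difference at that dose did (0.0329). Marker means of 5 cell lists lay below all vehicle arrays at the same dose, the red cell and macrophage means given above and those of lymphocytes, periportal hepatocytes and pericentral hepatocytes. The 5 lymphocyte markers measured had array means of 5.55 to 5.72 at 978.5 mg/kg, against 5.80 to 6.07 in vehicle livers. The 8 periportal markers had means of 11.56 to 11.73, against 11.83 to 12.05. Of these 8, 1 rose and 2 fell, beside 6.18% and 4.07% of all genes. The part of these lists in the falls of Slc43a2, Slc7a8 and Slc38a3 was not tested.

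Slc43a1, or LAT3, is a like uniporter that is abundant in liver. Its signals at 489.2 mg/kg were 10.40, 10.27 and 10.75, against a lowest of 9.53, a median of 9.95 and a highest of 10.27 in vehicle livers. All arrays of this dose stood above the vehicle, replicate 2 by less than the rounding of these values. Slc43a1 rose by 0.53 ± 0.13 there (SE, n = 3 against 6, 1.44-fold, limma adjusted p = 0.036), while at 978.5 mg/kg the arrays, 10.17, 10.21 and 10.02, lay within the vehicle range (difference 0.19 ± 0.13, limma adjusted p = 0.405). The difference at 244.6 mg/kg was -0.23 ± 0.13. The call at 489.2 mg/kg was lost when only the arrays compared were fitted (limma adjusted p = 0.183) and without replicate 1 or 3 of that dose (0.116 and 0.207). It was likewise lost without vehicle replicate 1, 3 or 4 (limma adjusted p = 0.0665, 0.0649 and 0.0558). Between the highest and the lowest doses Slc43a1 differed by 0.37 ± 0.11 (limma adjusted p = 0.0714), which passed without 122.5 mg/kg replicate 1 (0.0488) or 489.2 mg/kg replicate 2 (0.0454). That contrast also passed with the replicate number as a block (limma adjusted p = 0.0281), with median centring (0.0337), with array weights (0.0122) and among genes above the median level (0.0489).

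Of the 9 Slc38 carriers, Slc38a3 was called. It is the system N carrier that moves glutamine, histidine and asparagine in either direction in hepatocytes. Its signals were 11.87, 11.68 and 11.49 at 978.5 mg/kg, against a lowest of 11.91, a median of 12.03 and a highest of 12.12 in vehicle livers. The groups did not overlap, and Slc38a3 fell by 0.34 (SE 0.10, n = 3 against 6, limma adjusted p = 0.03). All arrays at 244.6 mg/kg also lay below the vehicle (11.80, 11.71 and 11.87), without a call (-0.23 ± 0.10, limma adjusted p = 0.278), and at 489.2 mg/kg replicate 3, at 12.22, was the highest of all arrays. The call at 978.5 mg/kg was lost without replicate 3 (-0.25, limma adjusted p = 0.218) or 2 of that dose (0.0734), without vehicle replicate 1 or 3 (0.0544 and 0.0559), with the replicate number as a block (0.0775) and with only the arrays compared (0.0519). The trend, -0.05 per dose step, did not pass (limma adjusted p = 0.108) but did without 489.2 mg/kg replicate 3 (0.0141). Slc38a5, the other system N carrier named here, differed by -0.07 ± 0.07 at that dose.

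The system A carriers, which take up alanine and other small neutral amino acids with sodium, showed no call. Slc38a4, a carrier typical of hepatocytes, differed by 0.08 ± 0.10 at 978.5 mg/kg (95% interval -0.14 to 0.30) and by no more than 0.01 in either direction at each lower dose. Slc38a2 is the system A carrier that cultured cells raise when amino acids are withdrawn. At 61.2 mg/kg its arrays, 10.35, 10.11 and 10.47, all lay above the vehicle (lowest 9.42, median 9.94, highest 10.06), with a difference of 0.46 ± 0.15 that did not pass (limma adjusted p = 0.788). In 2 members all arrays at this dose lay above the vehicle, Slc38a2 and Slc7a14, which compares with 1.48% of all genes. At 978.5 mg/kg Slc38a2 stood at 9.97, 9.78 and 9.84, inside the vehicle range, with a difference of 0.01 ± 0.15 (95% interval -0.29 to 0.32). Slc38a1 has been given with its promoter. The lysosomal carriers Slc38a9, which senses arginine for mTORC1, and Slc38a7 differed by 0.02 ± 0.11 and 0.20 ± 0.16 at 978.5 mg/kg, and neither was called in any test.

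Carriers of cationic amino acids were likewise without a call. Slc7a2, the carrier of arginine, lysine and ornithine in hepatocytes, differed by -0.06 ± 0.07 at 978.5 mg/kg (95% interval -0.21 to 0.08). Slc7a1, found in most dividing cells, had 3 probe sets, which gave 0.08, 0.07 and -0.07 at that dose. At 61.2 and 244.6 mg/kg its second probe set read 0.52 and 0.49, where the probe set used read -0.04 and 0.02.

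The 6 Slc1 members comprise glutamate carriers and the neutral exchangers Slc1a4 and Slc1a5, and none was called. Slc1a2, the glutamate carrier GLT-1, which in rat liver is found in hepatocytes around the central vein, stood at 6.62, 7.18 and 6.76 at 978.5 mg/kg, against a lowest of 6.07, a median of 6.48 and a highest of 7.09 in vehicle livers. The groups overlapped (difference 0.31 ± 0.19, 95% interval -0.08 to 0.70, limma adjusted p = 0.321). Among the 7 pericentral markers measured 2 fell at that dose, Oat (-1.39 ± 0.23) and Cyp1a2 (-0.48 ± 0.13), beside 4.07% of all genes that fell. The other 5 did not pass, the list's median was -0.12 and its highest member was Tbx3 at 0.11. Array means of the list, 9.59 to 9.68 against 9.87 to 10.12 in vehicle livers, include Oat, the member that differed most. Slc1a4, an exchanger of alanine, serine and cysteine, had the widest spread of the 35 members in vehicle livers, with an SD of 0.37, from 6.83 in replicate 1 to 7.89 in replicate 6. Its differences ranged from -0.12 ± 0.22 at 489.2 mg/kg to 0.47 ± 0.22 at 244.6 mg/kg. Slc1a6 had the lowest difference of the family, -0.39 ± 0.21 at 489.2 mg/kg (limma adjusted p = 0.405). Slc1a3 read 0.16 at 978.5 mg/kg by the probe set used, but -0.35 and 0.04 by its dimmer ones. The 3 proton-coupled Slc36 carriers lay between -0.12 and 0.24 at all doses. The upper end was that of Slc36a1 at 489.2 mg/kg, where its arrays read 7.67, 7.56 and 7.66 and lay above a vehicle range of 7.23 to 7.52 (difference 0.24 ± 0.09, limma adjusted p = 0.191).

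Over the 28 members called in no test, differences at 978.5 mg/kg by the probe set used ran from -0.32 for Slc7a7 to 0.31 for Slc1a2. Their 95% intervals reached from -0.69, for Slc1a6, to 0.70, for Slc1a2. Slc7a9 and Slc7a13 had mean signals below the 20th percentile of all probe sets.

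Among carriers of amino acids and small peptides from other families, the largest difference was a fall of the taurine carrier Slc6a6. Of 28 carriers measured, 0 rose and 4 fell at 978.5 mg/kg, with a median of -0.02, beside 4.07% of all genes that fell. At 244.6 and at 489.2 mg/kg 1 fell, Slc6a6 in both, beside 0.429% and 1.39% of all genes that fell. Slc6a6 had signals of 6.41, 6.54 and 6.09 at 978.5 mg/kg, against a lowest of 9.77, a median of 9.97 and a highest of 10.48 in vehicle livers. It fell by 3.71 (SE 0.27, limma adjusted p = 7.46e-08). Its arrays at 244.6 mg/kg, 7.26, 8.05 and 7.48, also lay below all vehicle arrays. The mitochondrial glutamate carrier Slc25a22 fell by 0.49 (SE 0.13, limma adjusted p = 0.0196) and the mitochondrial ornithine carrier Slc25a15 by 0.35 (SE 0.09, limma adjusted p = 0.022). Slc6a8, whose substrate is creatine, fell by 0.24 (SE 0.07, limma adjusted p = 0.034). The glycine carrier Slc6a9 passed in the trend alone, upward, at 0.10 ± 0.03 per dose step (limma adjusted p = 0.0459).

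Genes of amino acid sensing, through GCN2 and ATF4 or through mTORC1, were mostly higher where they were called. Of 29 measured, 8 rose and 0 fell at 978.5 mg/kg, with a median of 0.15, beside 6.18% of all genes that rose. At 244.6 mg/kg 5 rose, beside 2.52% of all genes, and at 489.2 mg/kg 2 rose, beside 1.51%. In the trend 9 rose, beside 6.06% of all genes, and 1 fell, beside 5.12%. The gene that fell was Depdc5 (-0.05 ± 0.01 per dose step, limma adjusted p = 0.0227). Asns, asparagine synthetase, had signals of 10.02, 9.74 and 9.72 at 978.5 mg/kg, against a lowest of 7.51, a median of 7.95 and a highest of 8.48 in vehicle livers (difference 1.85 ± 0.27, limma adjusted p = 0.000207). Slc7a11, the cystine and glutamate exchanger that is itself a light chain of Slc3a2 and an NRF2 target, stood at 6.43, 6.27 and 6.30, against a lowest of 5.14, a median of 5.43 and a highest of 5.60 in vehicle livers (0.91 ± 0.13, limma adjusted p = 0.000193). Replicate 3 of 489.2 mg/kg was the lowest array of its group in Slc3a2 (10.78), in Asns (8.73) and in Slc7a11 (5.60). In Slc7a5 the lowest array of that dose was replicate 2 (7.14), with replicate 3 at 7.19. Vehicle replicate 6 was the highest vehicle array in Slc3a2 (11.06) and in Asns (8.48), but in Slc7a5 it stood at 6.86, below the vehicle median of 6.96. Sesn3, a sestrin that restrains mTORC1, rose by 0.60 ± 0.10, and Eif4ebp1, a translation repressor that mTORC1 inactivates, rose by 0.60 ± 0.11. Ddit4, another brake on mTORC1, rose by 1.74 ± 0.35 and Rheb, the GTPase that activates mTORC1, by 0.30 ± 0.07. The limma adjusted p-values of these last 4 genes were 0.000941, 0.00162, 0.00292 and 0.00745. Ddit4 did not order by dose, with 1.55 ± 0.35 and 1.58 ± 0.35 at 61.2 and 122.5 mg/kg and 1.01 ± 0.35 at 489.2 mg/kg, none called. Its contrast of highest with lowest doses was -0.19 ± 0.28 (limma adjusted p = 0.823). Atf4 itself stood at 11.86, 11.94 and 11.78 at 978.5 mg/kg, inside the vehicle range of 11.16 to 11.97 (0.26 ± 0.18, limma adjusted p = 0.414). Eif2s1 and Nprl2 also rose at 978.5 mg/kg, by 0.36 ± 0.10 and 0.30 ± 0.08 (limma adjusted p = 0.0199 and 0.0267), and in the trend. Trib3 was higher at 489.2 mg/kg (0.92 ± 0.22, limma adjusted p = 0.0249) and in the trend (limma adjusted p = 0.0313). Its differences at 61.2, 122.5 and 244.6 mg/kg were 0.77, 0.55 and 0.69, none called. At 978.5 mg/kg Trib3 read 0.68 ± 0.22 and did not pass (limma adjusted p = 0.0549). The remaining genes of the list were called in no test. At 978.5 mg/kg these included Atf3 (-0.37 ± 0.21), Atf5 (0.02 ± 0.15), Chac1 (0.08 ± 0.22), Ddit3 (0.07 ± 0.15) and Sesn2 (0.10 ± 0.22).

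**Figure D4:**
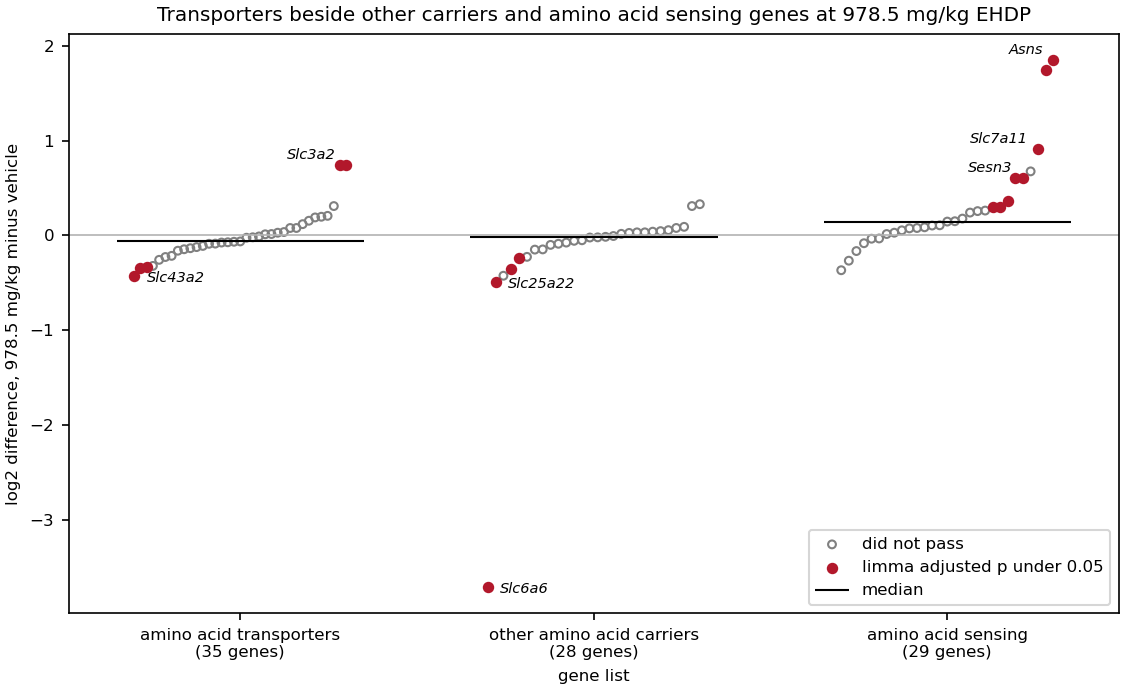
Log2 difference between 978.5 mg/kg EHDP and vehicle (n = 3 against 6) for the 35 amino acid transporters, 28 carriers of other families and 29 amino acid sensing genes (columns), with 1 point per gene ordered by value, filled where the limma adjusted p was under 0.05, and a line at each median. The list medians are -0.06, -0.02 and 0.15, and the lowest point is Slc6a6 at -3.71.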

How the data were processed

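RNA from rat liver was hybridised to Affymetrix arrays. The authors deposited 1 table of log2 values, made with RMA per the submitters' processing notes, which give no version, and its values ran from 2.77 to 15.36. Probe sets were named from the platform annotation: of 31099, 20832 had 1 gene symbol, 436 several and 9831 none, and those with 1 gave 14218 genes. Each gene was read by its probe set with the highest mean over the 21 arrays. limma 3.58.1 in R 4.3.3 (lmFit, contrasts.fit and eBayes) fitted 1 mean per group over all arrays, with 15 residual degrees of freedom, and p-values were adjusted by Benjamini-Hochberg over all genes at 0.05. The comparisons were each dose against the vehicle, a slope over dose rank, and the mean of the highest doses minus the mean of the lowest. The procedure was tested on simulated data. Python 3.11.15 searched the RefSeq promoter windows.

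Members, gene lists and tests were chosen with earlier results of these data known. The text names every member called, every member whose arrays at 978.5 mg/kg all lay beyond the vehicle, the heavy and light chains, the liver system A, system N and cationic carriers, Slc1a2, and the called genes of the other lists, at most 6 each by smallest p. Slc1a3, Slc1a4, Slc1a6, Slc7a13, Slc7a14, Slc36a1, Slc38a7, Slc38a9, Atf3, Atf4, Atf5, Chac1, Ddit3, Sesn2, Depdc5, Eif2s1, Nprl2, Trib3 and Tbx3 were named after their values were seen. Alternatives covered probe set choice, filtering, scaling, weighting, arrays fitted and a replicate block. No protein sequences were used here.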

Additional observations from a re-analysis of the deposited data

Results flagged for a closer look

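In 35 transporters the 6 vehicle arrays were tested for an array standing apart by Dixon's criterion at the 95% level, and chance flags about 1 group in 20. Slc7a13 was flagged because vehicle replicate 2, at 3.74, was the highest, above 3.58 in the nearest vehicle array, a gap of 0.733 of the range. Slc7a14 was flagged because vehicle replicate 5, at 5.25, was the lowest, below 5.41 in the nearest vehicle array, a gap of 0.757 of the range. Neither gene was called in any test.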

How the results depend on the processing

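The calls of Slc3a2 and Slc7a5 at 978.5 mg/kg were kept in all 10 and 9 alternatives that tested them and in all 9 fits without 1 array. The number of transporters called, 5 at 978.5 mg/kg, was 3 among genes above the median level, where Slc7a5 and Slc7a8 were not tested, 2 with a 1.5-fold minimum, and 4 or 5 without 1 array. At 489.2 mg/kg the count of 2 was 0 with only the arrays compared, 1 with the 1.5-fold minimum, and 0 to 2 without 1 array. At 244.6 mg/kg the count of 1 was 0 among genes above the median level, 0 with only the arrays compared, 0 with the 1.5-fold minimum, 2 with array weights, and 0 or 1 without 1 array. At 122.5 mg/kg array weights gave 2, Slc7a7 and Slc7a8, in place of 0. The trend count of 5 was 2 among genes above the median level, 2 with treated arrays only, 3 with dose in mg/kg, and 3 to 6 without 1 array. The count of 2 between highest and lowest doses was 1 after a second quantile normalization, 1 with a floor at the 20th percentile, 1 with only the arrays compared, 1 with the 1.5-fold minimum, 4 with array weights, and 1 to 3 without 1 array. Over all genes the same alternatives moved the calls at 978.5 mg/kg, 1457, to between 361 and 1523, those at 489.2 mg/kg, 412, to between 160 and 468, those at 244.6 mg/kg, 420, to between 209 and 766, and those at 122.5 mg/kg, 16, to between 4 and 357. No result was reversed, and apart from fewer genes or arrays entering a fit the cause was not tested. Median centring and quantile normalization moved the median of all genes by less than 0.1. Same-numbered arrays correlated in their deviations from the group means with a median r of 0.06 over 45 pairs (range -0.23 to 0.37, 17 over 0.1), against -0.02 over 90 pairs of different number (17 over 0.1), and 10 of 18 arrays correlated best with their own number. Endothelial marker means were lowest in replicate 1 of all 6 groups, 8.99 to 9.09 at the doses and 9.16 in the vehicle, against at least 9.53 in every other array. The numbers were not taken as pairs, since the labels give them no shared source. Whether arrays of the same number share a source was not tested. With the replicate number as a block the counts were 0, 0, 1, 2 and 4 from the lowest dose to the highest, 4 for the trend and 3 between highest and lowest doses, where Slc43a1 was added.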
